A study of Mus musculus with 24 samples.

Results

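The 35 genes described here encode enzymes of cholesterol and fatty acid synthesis and the proteins that control their transcription. They were chosen by symbol as known targets, enzymes and regulators of the SREBP pathway, and kept if the authors' normalized CPM (counts per M counts of the library, where M is mega) averaged at least 1 over all libraries. All 35 passed, out of 56980 genes in the deposited table, and all 35 were among the 14090 genes that passed the filter on low counts and were tested. By role they were 18 enzymes of sterol synthesis, 1 sterol carrier (Stard4), 5 regulators (Srebf1, Srebf2, Scap, Insig1 and Insig2) and 11 enzymes of fatty acid synthesis, elongation and desaturation. RNA was measured in sorted microglia, the resident macrophages of the brain, of 12 mice, all 19 months old. The 6 controls were Grn+/+ (called WT) and the other 6 were Grn-/- (called GrnKO), which lack progranulin, a protein of the lysosome. Both genotypes were on a C57Bl/6J background and carried an hTfR mu/hu knock-in. From each brain, CD11b+ and CD45+ cells were sorted by their autofluorescence at 488 nm into low and high bins. This served as a proxy for lipofuscin, the residue that ageing lysosomes store. Each animal gave 2 libraries of 1000 cells, so that the 4 groups by genotype and bin held 6 libraries each. Every brain was dissociated with actinomycin D, an inhibitor of transcription, and anisomycin, an inhibitor of translation. The sources used here do not give the limits of the 2 sorting gates, nor whether both genotypes had the same ones.

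Cells make cholesterol from acetyl-CoA through the mevalonate pathway, and fatty acids by elongating malonyl-CoA units on fatty acid synthase. Both routes are controlled by the SREBP transcription factors, which are made as membrane precursors of the endoplasmic reticulum. When sterols are scarce, the escort protein SCAP carries SREBP to the Golgi, where it is cleaved and released to the nucleus. When sterols are plentiful, INSIG proteins hold SCAP back. Microglia take up cholesterol and other lipids from myelin and dying cells and degrade them in lysosomes, where progranulin acts.

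SREBP binds a sterol regulatory element and acts together with NF-Y, which binds CCAAT, and Sp1, which binds GGGCGG. The RefSeq promoter table used here (build GRCm38.p6, not the build of the deposited files) held an entry for 28 of the 35 genes. Scd1, Scd2, Fdft1, Sqle, Stard4, Fdps and Fads1 have no entry in it. The window ran from 250 bases before to 50 bases after the start of the gene, and each motif was searched on both strands. CCAAT was found in 23 of 28 genes (82.1%), against 41.1% of all 27025 genes in the table. GGGCGG was also found in 23 of 28 (82.1%), against 38.2% of all genes. The core TCACNCCAC of the sterol regulatory element was found in 1 of 28 (3.57%), in Hmgcs1, against 1.44% of all genes. The 3 promoters below are printed because Hmgcs1 held that core and because Ebp and Srebf2 appear repeatedly in the results, a choice made after their values were seen. Each shows the 250 bases before the start, 5′ to 3′ on the strand of the gene. Capitals mark the core TCACCCCAC in Hmgcs1 and each CCAAT, which reads ATTGG where it lies on the other strand.
Hmgcs1 (chr13:119690101-119690350, plus strand): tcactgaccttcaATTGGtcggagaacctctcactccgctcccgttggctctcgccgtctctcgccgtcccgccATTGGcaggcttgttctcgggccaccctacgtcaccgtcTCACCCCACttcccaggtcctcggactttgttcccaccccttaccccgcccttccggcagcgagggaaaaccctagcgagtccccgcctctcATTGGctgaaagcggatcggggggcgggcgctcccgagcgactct
Ebp (chrX:8193513-8193762, minus strand): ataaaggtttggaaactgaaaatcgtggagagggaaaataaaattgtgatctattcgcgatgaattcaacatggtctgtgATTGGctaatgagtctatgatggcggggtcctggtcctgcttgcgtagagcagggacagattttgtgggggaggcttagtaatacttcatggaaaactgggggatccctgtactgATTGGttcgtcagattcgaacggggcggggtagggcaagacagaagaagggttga
Srebf2 (chr15:82147019-82147268, plus strand): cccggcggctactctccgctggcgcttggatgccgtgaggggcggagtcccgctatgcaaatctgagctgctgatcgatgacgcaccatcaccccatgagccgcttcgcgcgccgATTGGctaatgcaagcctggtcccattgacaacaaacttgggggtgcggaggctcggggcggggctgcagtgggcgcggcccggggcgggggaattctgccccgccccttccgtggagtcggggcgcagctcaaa
The core in Hmgcs1 began 137 bases before the start, with CCAAT at 237, 176 and 45 bases before it. Ebp held CCAAT at 170 and 55 bases before the start, and Srebf2 at 135 bases. A match is a description of these letters and not evidence that a factor binds there.

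Libraries held 12.9 to 46.8 M estimated counts (median 30.5 M). Grn ran from 439 to 1477 CPM in WT and from 0.520 to 20.3 CPM in GrnKO libraries, so that the genotypes matched their labels. The sex labels did not match the RNA: Xist ran from 701 to 2273 CPM in the 12 libraries labelled male and from 1.01 to 2.21 CPM in the 12 labelled female, and the sum of 4 Y-linked genes was opposite. Since all 12 animals were affected alike, the sex term separates the same animals whichever name it carries. The 10 microglia markers summed to group medians of 21922 CPM in WT low, 26149 in WT high, 19885 in GrnKO low and 24249 in GrnKO high, and 12 of 12 animals had more of them in the high bin. The sum of 10 T and NK cell markers went the other way in 11 of 12 (6 of 6 GrnKO and 5 of 6 WT). It ran from 29.7 to 290 CPM in WT low, 2.69 to 113 in WT high, 259 to 779 in GrnKO low and 39.0 to 193 CPM in GrnKO high, and in WT high 4 of the 10 markers stayed at 3 or fewer counts. The 7 choroid plexus markers summed to 82932 CPM in the low library of WT animal 9 and to 28817 CPM in that of GrnKO animal 8, where the group medians were 272 and 759 CPM. In WT animal 1 they summed to 25667 CPM (low) and 20867 CPM (high). These 4 libraries are the ones left out below as highest in choroid plexus RNA, so those fits also drop all of animal 1. The 5 erythrocyte markers summed to a median of 9.50 CPM in WT low (4.68 to 37.8) and 9317 CPM in GrnKO low (54.5 to 37593), without overlap. In the high bin their sum ran from 16.8 to 6622 CPM in WT and from 16.0 to 11068 CPM in GrnKO. The sum of 9 neuron markers, at most 99.8 CPM, was lower in the high library of 10 of 12 animals. What part either had in the results below was not tested. WT animal 1 stood apart in both of its libraries. They had 9.70% (low) and 7.91% (high) mitochondrial counts where the median library had 2.20%, and the highest astrocyte, oligodendrocyte and endothelial marker sums of their groups. The low library of this animal was the highest or lowest of its 6 for 21 of the 35 genes, and its high library for 24.

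Mean levels of the 35 genes ran from 1.50 CPM (Fads2) to 176 CPM (Elovl1), without correction for transcript length. In all 24 libraries, 23 of the genes had more than 3 counts. Another 6 were at 3 or fewer counts in 1 to 5 libraries, and the last 6 (Hsd17b7, Stard4, Me1, Scd1, Elovl6 and Fads2) in 6 or more. The median biological coefficient of variation of the 35 genes was 0.745, against 0.770 for the 11312 tested genes in the same range of mean CPM. The steadiest were Msmo1 at 0.301 and Ebp at 0.316.

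**Figure D1:**
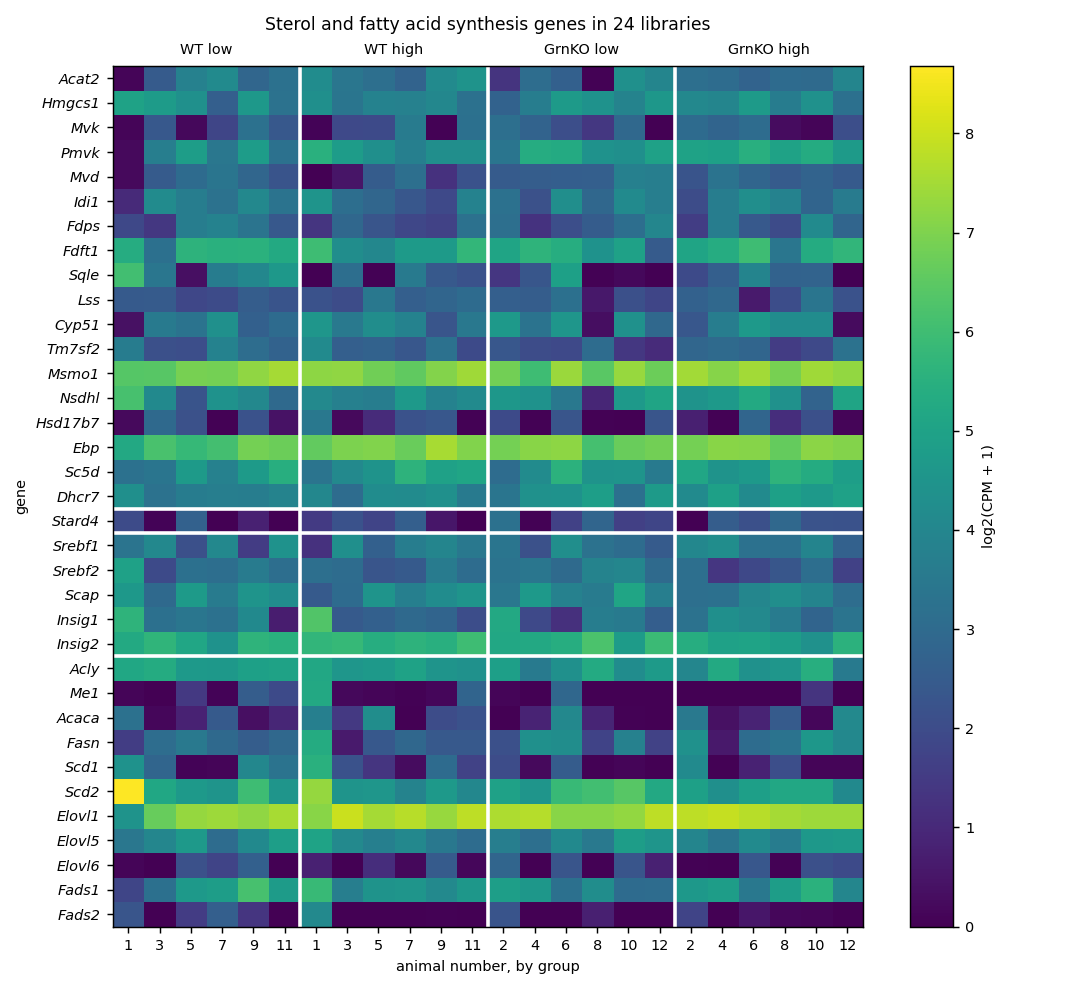
Levels of the 35 genes in the 24 libraries. Colour gives log2(CPM + 1), columns are animals within the 4 groups, and white lines divide the groups and the roles (sterol enzymes, Stard4, regulators, fatty acid enzymes from top to bottom). Elovl1, Msmo1 and Ebp are bright in nearly every library, Scd2 is brightest in both libraries of WT animal 1 (409 and 158 CPM), and Me1, Fads2, Elovl6 and Hsd17b7 are dark in many.

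Lipofuscin-high and lipofuscin-low microglia of the same brains were compared first. In the model of all 24 libraries without an animal term (edgeR, Benjamini-Hochberg adjusted p under 0.05), 0 of the 35 genes passed in WT, where 0.248% of all tested genes did. In GrnKO it was 0 of 35, against 0.206% of all tested genes. Averaged over both genotypes it was again 0 of 35, against 1.31%. At an unadjusted p under 0.05 there were 1, 1 and 3 of the 35 in these comparisons, while 8.25%, 7.82% and 11.2% of all tested genes reached it. DESeq2 called 0 of the 35 in each of them (1.87%, 2.11% and 3.57% of all tested genes), and limma-voom also called 0 (0.341%, 0.504% and 1.81%). With the animal as a fixed block, which compares the 2 libraries of each brain, Ebp passed in WT (1 of 35, against 0.454% of all tested genes) and Ebp and Scd2 passed over all animals (2 of 35, against 1.53%). Without the filter on low counts the unblocked fit called Scd2 over all animals (1 of 35, against 3.08% of all genes then tested). In GrnKO 0 of 35 passed under the block, against 0.341%. By sign of the fold change, in WT 16 genes were positive and 19 negative (median log2 fold change -0.05, against -0.04 for all tested genes). Of all tested genes 52.5% were negative there. With the block the median in WT was 0.04, against 0.02. In GrnKO 23 were positive and 12 negative (median 0.16, against -0.05), where 53.6% of all tested genes were negative. The sterol enzymes made 12 and 6 of these and the fatty acid enzymes 8 and 3. In limma-voom 4 of 18 sterol and 4 of 11 fatty acid enzymes were negative. The GrnKO median was 0.41 with the block (0.03 for all tested genes) and 0.37 in limma-voom (0.04). It was 0.06 once the 4 libraries with most choroid plexus RNA were left out (-0.02 for all tested genes), and also 0.06 without GrnKO animal 4 (-0.05).

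Scd2, a stearoyl-CoA desaturase that makes monounsaturated fatty acids and is the main such enzyme of the brain, was lower in the high than in the low library of 12 of 12 animals. Over all tested genes, 0.483% were lower in all 12. In WT low animals 1, 3, 5, 7, 9 and 11 it stood at 409, 35, 24.6, 21.6, 62.1 and 22.2 CPM. Their high libraries stood at 158, 21.7, 22.7, 13.8, 24.8 and 15.4 CPM. In both bins WT animal 1 was far above the other 5, which lay between 13.8 and 62.1 CPM. In GrnKO low animals 2, 4, 6, 8, 10 and 12 Scd2 stood at 30.4, 22.1, 56.2, 65.0, 85.2 and 36.9 CPM, and their high libraries stood at 29.5, 19.0, 29.0, 36.3, 36.1 and 16.4 CPM. The drop within an animal ran from almost none in GrnKO animal 2 to the steepest drops in WT animals 1 and 9 and GrnKO animals 10 and 12, although the 2 bins overlapped in both genotypes. Over all animals the log2 fold change was -0.76 (SE 0.167) with the animal as a block (edgeR, adjusted p = 0.0259) and -0.93 (SE 0.404) without it (adjusted p = 0.364). Under the block the call was lost without WT animal 1 (-0.70, adjusted p = 0.0704) and also when any one of animals 3, 6, 8, 9, 10 or 12 was left out. Within WT the blocked log2 fold change was -0.78 (adjusted p = 0.215), and the change in high against low did not pass between genotypes (interaction 0.24, SE 0.802, adjusted p = 1.00). Scd2 is also a gene of myelinating oligodendrocytes and of astrocytes. All 12 of 12 oligodendrocyte markers were in the table, and their sum ran from 719 to 3830 CPM in WT low, 725 to 2939 in WT high, 683 to 1887 in GrnKO low and 873 to 1221 in GrnKO high. The sum of the 12 of 12 astrocyte markers ran from 308 to 1040 CPM in WT low, 264 to 1722 in WT high, 111 to 314 in GrnKO low and 194 to 298 in GrnKO high. All 12 oligodendrocyte markers exceeded 3 counts in some library of every group, and so did the astrocyte markers except 1 in GrnKO low. Without the 4 libraries highest in astrocyte markers, which include both of WT animal 1, the unblocked log2 fold change of Scd2 was -0.80 (edgeR adjusted p = 0.109). The part of oligodendrocyte RNA in the Scd2 result was not tested. The oligodendrocyte sum was lower in the high library in 5 of 6 GrnKO animals and 1 of 6 WT animals. The T and NK cell sum given above was lower there in 11 of 12 animals, and in GrnKO its bins did not overlap, and its part in the Scd2 result was not tested either. In such bulk libraries, fewer cells of a type and less RNA per cell cannot be told apart.

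Ebp, the sterol isomerase that shifts a double bond late in cholesterol synthesis, exceeded its low-bin level in the high bin of 6 of 6 WT and 3 of 6 GrnKO animals. In WT low animals 1, 3, 5, 7, 9 and 11 it stood at 37.1, 71.4, 55.3, 67.6, 116 and 104 CPM. Their high libraries stood at 96.0, 123, 132, 103, 184 and 130 CPM. The GrnKO low libraries of animals 2, 4, 6, 8, 10 and 12 stood at 117, 141, 148, 69.4, 102 and 113 CPM. Their high libraries stood at 114, 141, 136, 99.0, 145 and 134 CPM. WT low was thus the low group, at 75.3 ± 29.8 CPM (SD, n = 6) against 128 ± 31.0 in WT high, 115 ± 28.4 in GrnKO low and 128 ± 17.8 in GrnKO high, with overlap between all of them. High against low in WT gave a log2 fold change of 0.83 (SE 0.171) with the animal as a block (edgeR, adjusted p = 0.0408) and 0.76 (SE 0.237) without it (adjusted p = 0.239). The blocked call held without animals 2, 8 or 11 and was lost when any one of the other 9 was left out, for example without WT animal 1 (0.72, adjusted p = 0.0876). Over all animals it was 0.51 (SE 0.120) with the block (adjusted p = 0.0400), a call that held without animals 1, 2 or 11 and was lost without any one of the others. In GrnKO the log2 fold change was 0.16 (95% interval -0.33 to 0.64). The difference between genotypes did not pass (interaction -0.60, 95% interval -1.29 to 0.09, adjusted p = 0.983), so a smaller response in GrnKO was not shown. Over all tested genes, 3.35% were higher in the high bin of 6 of 6 WT animals, and Ebp and Elovl1 were the 2 of the 35 genes among them.

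Lss, Sc5d and Tm7sf2 were each higher in the high bin of 4 of 6 WT and 5 of 6 GrnKO animals. The fatty acid enzyme Acaca was higher there in 5 of 6 WT and 4 of 6 GrnKO animals. The share of all tested genes with such counts was not computed. Msmo1, the oxidase that removes the methyl groups at carbon 4 of the sterol, was higher in the high bin of 6 of 6 GrnKO animals, as were 3.28% of all tested genes, and of 2 of 6 WT animals. It ran from 61.9 CPM through a median of 109 to 166 CPM in GrnKO low and from 119 through 162 to 177 CPM in GrnKO high. In WT low it ran from 83.3 through 117 to 180 CPM and in WT high from 93.1 through 140 to 173 CPM. The highest GrnKO low libraries overlapped the GrnKO high ones, and the log2 fold change in GrnKO was 0.44 (SE 0.222, edgeR adjusted p = 0.671; 0.435 with the block). Sqle, the squalene epoxidase, and Mvd, the decarboxylase that ends the mevalonate steps, were lower in the high bin of 6 of 6 WT animals. With Scd2 they were the 3 of the 35 genes to do so, against 2.95% of all tested genes. Sqle ran from 0.277 through 13.5 to 65.1 CPM in WT low and from 0 through 3.97 to 10.6 CPM in WT high, but in GrnKO its level was above that of the low bin in 4 of 6 animals. Mvd ran from 0.152 through 5.43 to 9.34 CPM in WT low and from 0 through 2.49 to 8.03 CPM in WT high, and was lower in the high library of 4 of 6 GrnKO animals. Neither gene was called, with or without the block. WT animal 1 was the highest Sqle library of WT low, and the log2 fold change of Sqle in WT was -1.92 with it (edgeR adjusted p = 0.835) and -1.15 without it (0.951). Hmgcs1, which makes HMG-CoA at the head of the pathway and holds the core motif printed above, was lower in the high library of 5 of 6 WT and 3 of 6 GrnKO animals.

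Among the regulators, Srebf2 and Insig2 had the smallest p-values. Srebf2 encodes SREBP-2, the family member that mainly drives cholesterol synthesis. It was lower in the high bin of 6 of 6 GrnKO animals, as were Scd2 and 3.35% of all tested genes, and of 5 of 6 WT animals. The T and NK cell marker sum was lower in the same bin of 6 of 6 GrnKO and 5 of 6 WT animals, with medians of 475 and 76.6 CPM in GrnKO low and high, and its part in the Srebf2 result was not tested. Srebf2 and Scd2 were the 2 of the 35 genes lower in at least 11 of 12 animals, against 1.75% of all tested genes. GrnKO low libraries ran from 6.91 through 9.30 to 14.8 CPM and GrnKO high libraries from 1.56 through 3.34 to 7.97 CPM. WT low libraries ran from 2.89 through 8.06 to 30.3 CPM, the highest being animal 1, and WT high libraries from 3.89 through 7.44 to 11.2 CPM. The bins overlapped in both genotypes. The log2 fold change was -1.37 (SE 0.556) in GrnKO (edgeR adjusted p = 0.469; 0.541 with the block) and -0.96 (SE 0.386) over all animals (adjusted p = 0.305; 0.450 with the block). Without animal 1 the latter was -0.71 (edgeR adjusted p = 0.448). Leaving out the 4 libraries with the most choroid plexus marker RNA, which include both of animal 1, gave -0.57 over all animals (edgeR adjusted p = 0.642).

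Insig2, an anchor that holds SCAP in the endoplasmic reticulum, went opposite ways in the 2 genotypes. In the high bin it exceeded the low bin in 5 of 6 WT animals and fell short of it in 5 of 6 GrnKO animals. WT low libraries ran from 20.3 through 41.4 to 50 CPM and WT high libraries from 41.9 through 49.8 to 62.4 CPM. GrnKO low libraries ran from 26.4 through 39.0 to 73.7 CPM and GrnKO high libraries from 20.2 through 31.3 to 47.0 CPM. All 4 groups overlapped. The log2 fold change of high against low was 0.34 in WT and -0.44 in GrnKO. Their difference was -0.77 (SE 0.375, 95% interval -1.54 to -0.003), with an unadjusted p of 0.0491 and an edgeR adjusted p of 0.952. From low to high, the erythrocyte marker sum also split by genotype: it rose in 6 of 6 WT and fell in 6 of 6 GrnKO animals. The oligodendrocyte sum rose in 5 of 6 WT and fell in 5 of 6 GrnKO animals. What part these 2 sums had in the Insig2 result was not tested. In the interaction 0 of the 35 genes and 0% of all tested genes passed in edgeR, with or without the block, and 1 of 35 and 738 genes in all reached an unadjusted p under 0.05 without it. DESeq2 called 0 of the 35 (0.504% of all tested genes) and so did limma-voom (0.00710%). Insig1, whose transcript is itself a target of SREBP, was at 48.5 and 79.1 CPM in the 2 libraries of WT animal 1 and at 0.615 to 36.4 CPM in the other 22. Srebf1, which encodes the SREBP-1 forms, and Scap had medians in WT low and WT high of 12.3 and 11.0 CPM (Srebf1) and 19.6 and 15.2 CPM (Scap). In GrnKO low and GrnKO high they were 8.05 and 11.3 CPM (Srebf1) and 12.5 and 11.2 CPM (Scap).

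Elovl1, which extends saturated fatty acids to very long chains, was higher in the high bin in more animals than any other of the 35 genes, in 6 of 6 WT and 5 of 6 GrnKO animals. Over all tested genes, 1.70% were higher in at least 11 of 12. WT low libraries ran from 21.2 (animal 1) through 154 to 187 CPM and WT high libraries from 141 through 196 to 252 CPM. GrnKO low libraries ran from 139 through 175 to 223 CPM and GrnKO high libraries from 169 through 199 to 242 CPM. The bins overlapped in both genotypes, and in WT the log2 fold change was 0.57 (SE 0.287, edgeR adjusted p = 0.629; 0.78 and 0.334 with the block). Without animal 1 it was 0.42 (adjusted p = 0.450). Of the 35 genes, 25 were higher in the high bin in between 4 and 8 of the 12 animals.

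**Figure D2:**
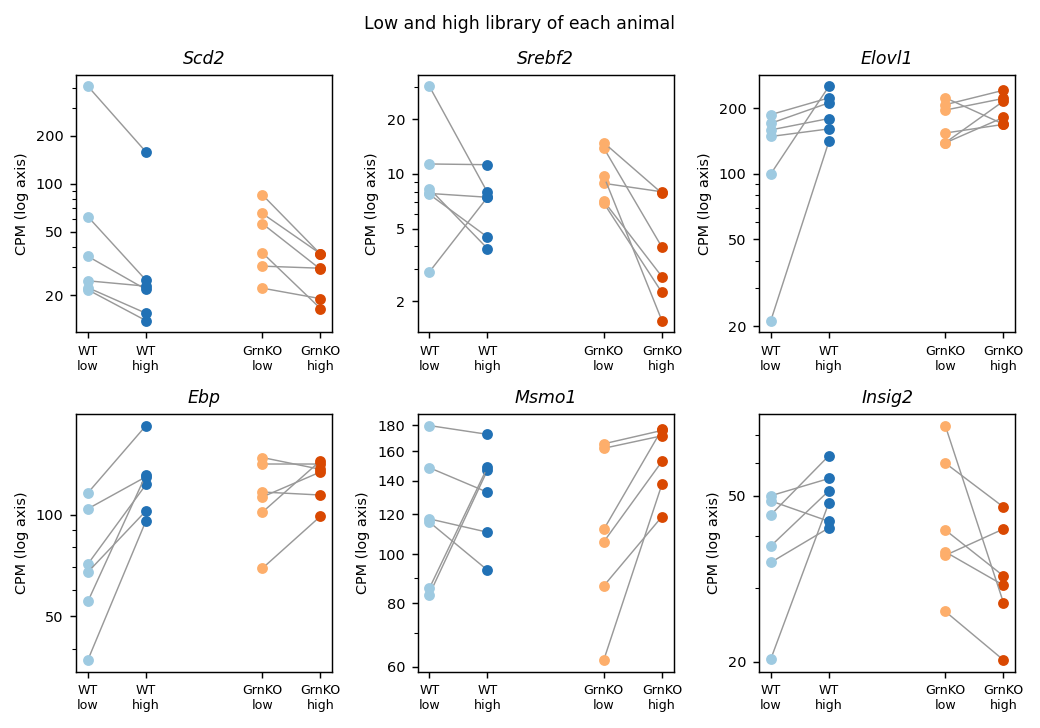
Levels of 6 genes in the low and high library of each animal (CPM, logarithmic axis). Points are libraries and grey lines join the 2 libraries of 1 animal. All 12 Scd2 lines and 11 of 12 Srebf2 lines slope down, and 11 of 12 Elovl1 lines slope up. Ebp slopes up in 6 of 6 WT and Msmo1 in 6 of 6 GrnKO animals, and Insig2 slopes up in 5 of 6 WT and down in 5 of 6 GrnKO animals.

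GrnKO and WT microglia were then compared within each bin. In the low bin 0 of the 35 genes passed in edgeR, against 0.326% of all tested genes, and in the high bin 0 of 35, against 0.163%. Over both bins it was 0 of 35, against 1.32%. This last comparison counts the 2 libraries of an animal as separate samples. At an unadjusted p under 0.05 there were 2, 2 and 3 of the 35, while 10.2%, 6.30% and 11.6% of all tested genes reached it. DESeq2 called 1 in each: Scd1 in the low bin (where it called 2.54% of all tested genes), Me1 in the high bin (1.36%) and Me1 over both bins (4.00%). limma-voom called 0 of the 35 in the low bin (0.461%), the high bin (0.326%) and over both (1.57%). Without the filter on low counts edgeR called Me1 and Scd1 over both bins (2 of 35, against 2.77% of all genes then tested). The median log2 fold change of the 35 genes was -0.08 in the low bin, 0.07 in the high bin and 0.03 over both, against -0.03, -0.06 and -0.06 for all tested genes, and scaling by library size alone put the latter 2 medians of the list below 0, at -0.03 and -0.07. With the 4 libraries of most choroid plexus RNA left out, which include both of WT animal 1, the medians were 0.11, 0.19 and 0.13. All tested genes then had medians of 0.01, -0.02 and -0.01. In the low bin the fold change was negative for 9 of 11 fatty acid enzymes (7 of 11 in limma-voom) and 9 of 18 sterol enzymes (11 of 18), against 51.8% of all tested genes. In the high bin it was negative for 5 of 11 and 6 of 18, against 54.2%. In no comparison of genotypes or bins did any of the 35 genes have groups that did not overlap. The same was not counted over all tested genes, so no trait of this list is read from it.

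**Figure D3:**
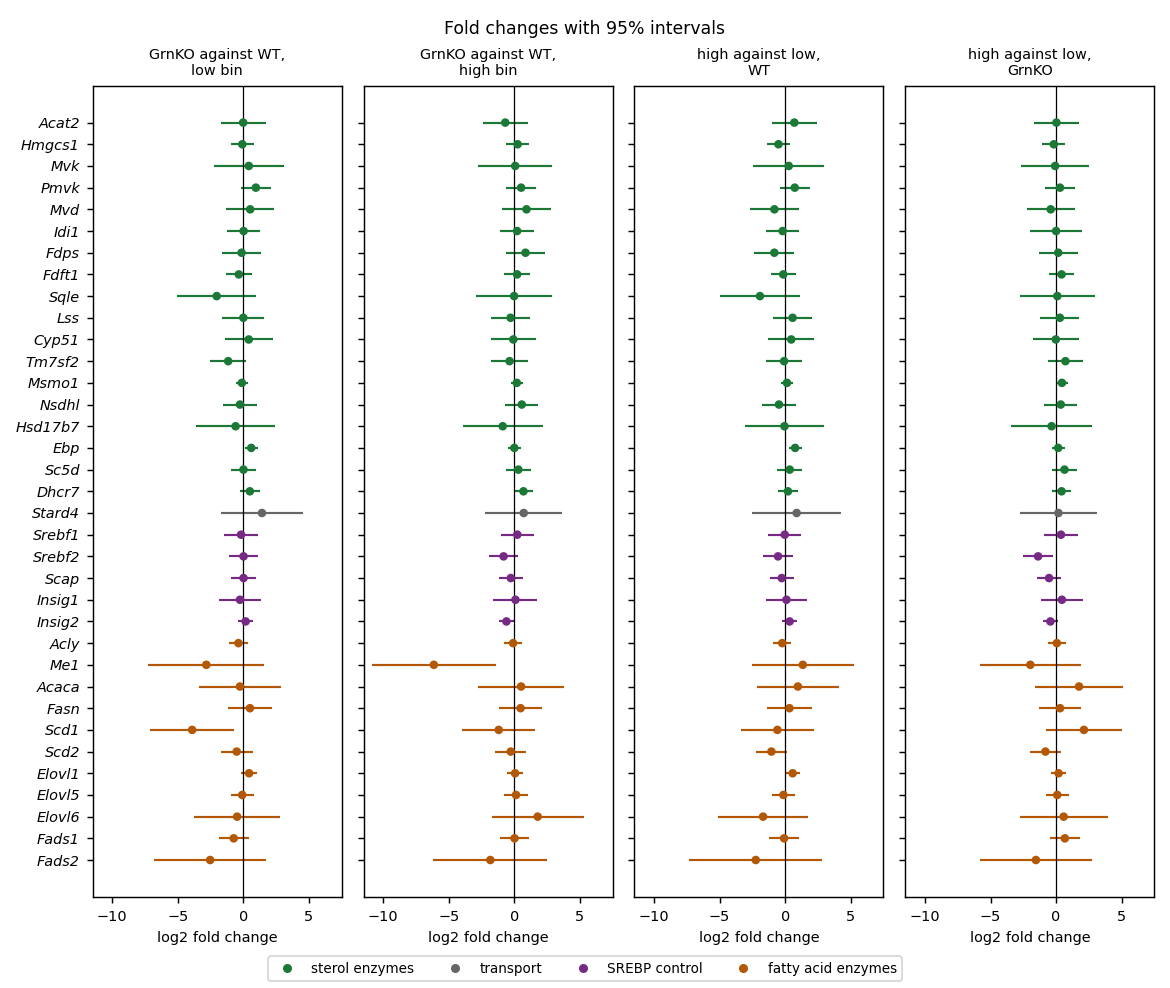
Log2 fold changes of the 35 genes in the 4 main comparisons, with 95% intervals, from the model without an animal term. Colours give the role, and positive values are higher in GrnKO (left pair of panels) or in the high bin (right pair). Intervals are narrow for Msmo1, Ebp and Insig2 and span several units for Me1, Scd1, Fads2 and Elovl6, and most cross 0.

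Scd1, the second stearoyl-CoA desaturase and a classical SREBP-1 and LXR target, and Me1, the malic enzyme that supplies NADPH for fatty acid synthesis, had the most negative fold changes of the 35 genes between genotypes, Scd1 in the low bin and Me1 in the high bin. Both were sparse. Scd1 in WT low animals 1, 3, 5, 7, 9 and 11 stood at 20.5, 6.07, 0.0692, 0.0966, 15.1 and 8.99 CPM. In GrnKO low animals 2, 4, 6, 8, 10 and 12 it stood at 3.04, 0.177, 4.73, 0.0433, 0.0825 and 0 CPM. In WT 4 of 6 libraries exceeded 6 CPM and in GrnKO none did, but the WT libraries of animals 5 and 7 were as low as most of GrnKO. The log2 fold change in the low bin was -3.90 (SE 1.56, edgeR adjusted p = 0.334; DESeq2 0.0471) and over both bins -2.54 (SE 1.01, adjusted p = 0.281). Without WT animal 1, the highest library in both bins, these were -3.61 (adjusted p = 0.428) and -2.02 (adjusted p = 0.552). In the high bin WT libraries ran from 0.225 through 2.91 to 44.1 CPM, the highest being animal 1, and GrnKO libraries from 0.0372 through 0.443 to 17.0 CPM. Scd1 and Scd2 are close paralogs, and how the estimated counts divided reads that match both was not tested.

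Me1 was at 36.7 CPM in the high library of WT animal 1 and at 6.00 CPM in that of WT animal 11, and the other 4 WT high libraries lay between 0.0321 and 0.129 CPM. In GrnKO high 5 of 6 libraries held 0 counts and animal 10 stood at 1.48 CPM. Apart from animal 1, the WT high group held 1 library above GrnKO animal 10. The fitted log2 fold change in the high bin was -6.13 (SE 2.31, edgeR adjusted p = 0.496; DESeq2 0.0478), and without animal 1 it was -6.29 (adjusted p = 0.628). Over both bins it was -4.48 (SE 1.65, adjusted p = 0.227; DESeq2 0.0134). These fitted values rest on groups that are mostly at 0 to 3 counts and depend on how the model treats such counts.

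Dhcr7, the reductase of the last step to cholesterol, was measured in every library. WT low libraries ran from 8.57 through 12.1 to 18.9 CPM and GrnKO low libraries from 8.25 through 20.1 to 28.2 CPM. WT high libraries ran from 7.44 through 16.3 to 19.7 CPM and GrnKO high libraries from 16.6 through 27.0 to 30.5 CPM. In the high bin 4 of 6 GrnKO libraries exceeded every WT library. In the high bin the log2 fold change was 0.70 (SE 0.368, edgeR adjusted p = 0.859), and over both bins it was 0.60 (SE 0.263, adjusted p = 0.356). For Ebp the log2 fold change was 0.61 in the low bin (SE 0.237, adjusted p = 0.321) and 0.01 in the high bin (95% interval -0.48 to 0.49). Tm7sf2, a sterol C14 reductase, differed in the low bin by a log2 fold change of -1.15 in GrnKO against WT (SE 0.670, adjusted p = 0.607), with WT between 3.25 and 13.5 CPM and GrnKO between 1.08 and 7.37 CPM. For Insig2 in the high bin the log2 fold change was -0.60 (SE 0.265, adjusted p = 0.696).

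**Figure D4:**
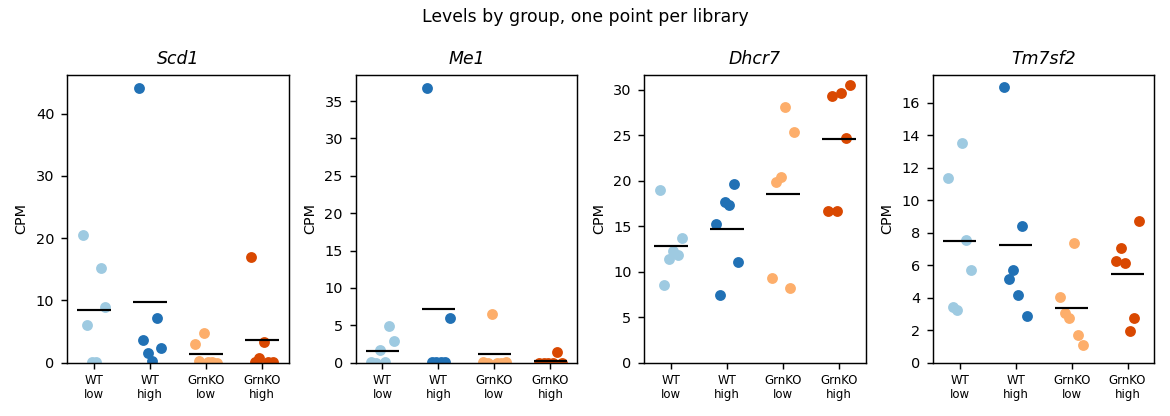
Levels of Scd1, Me1, Dhcr7 and Tm7sf2 (CPM, linear axis) in the 4 groups. Points are libraries and black lines are group means. The high libraries of Scd1 (44.1 CPM) and Me1 (36.7 CPM) in WT high are both WT animal 1, and 4 of 6 GrnKO high libraries of Dhcr7 lie above all WT libraries.

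Intervals show what these data can bound. Among the 35 genes the 95% interval lay wholly within a 2-fold change either way for 6 in the low-bin genotype comparison, 4 in the high bin, 4 for lipofuscin in WT and 6 for lipofuscin in GrnKO. Over both bins, and likewise over all animals, it did so for 11. For the other genes a 2-fold difference was not detectable or could not be bounded at this replication, and a p-value that misses the threshold does not show equal levels.

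Genes around the pathway were read from lists by function. Of 19 further genes of sterol synthesis and SREBP control 18 were tested. In the 4 comparisons within a bin or a genotype edgeR called 0 of them, with at most 2 at an unadjusted p under 0.05. Of 27 further genes of fatty acid synthesis 22 were tested and 0 were called by edgeR, with at most 2 at an unadjusted p under 0.05 in any comparison. Of 17 genes of cholesterol export, storage and LXR response all 17 were tested. In the low bin edgeR called 2 of these 17 higher in GrnKO, where it called 0.326% of all tested genes in either direction. They were Apoe, which carries lipids between brain cells (log2 fold change 1.56, SE 0.237, adjusted p = 0.000771), and Npc2, which hands cholesterol out of the lysosome (0.91, SE 0.194, adjusted p = 0.0258). Npc2 ran from 401 through 884 to 1026 CPM in WT low and from 1300.4 through 1578 to 1635 CPM in GrnKO low, without overlap. In 11 of 23 alternatives the Npc2 call in the low bin was lost. Neither gene passed in edgeR between genotypes in the high bin, though both fold changes were positive there. The log2 fold change was 0.83 for Apoe (SE 0.234, adjusted p = 0.244) and 0.76 for Npc2 (SE 0.193, adjusted p = 0.157). In WT, Apoe rose from low to high by 1.52 (SE 0.237, adjusted p = 0.00205). Npc2 was called there with the animal as a block (0.61, adjusted p = 0.00355), but not without it (0.61, adjusted p = 0.246) or with a random block (adjusted p = 0.103), and it missed the threshold in 19 of 36 alternatives. In GrnKO neither was called from low to high without a block (adjusted p = 0.228 for Apoe). With the animal as a fixed block Apoe was called at 0.80 (adjusted p = 0.00655, and 0.0200 with a random block) and Npc2 at 0.46 (adjusted p = 0.0381). The Apoe result in GrnKO missed the threshold in 15 of 36 alternatives. The Npc2 result in GrnKO missed it in 27 of 36, with an adjusted p of 0.167 under the random block. Over both bins Apoe, Npc2 and Soat1, which esterifies cholesterol for storage, were called higher in GrnKO (adjusted p = 0.000101, 0.000960 and 0.0329). With the counts of each animal summed, none of these 3 calls held (adjusted p = 0.0514, 0.0977 and 0.140).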

How the data were processed

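Per the submitters' processing notes, reads were processed with build GRCm39 and with R 4.5.1, edgeR 4.6.2, Salmon 1.10.1 and STAR 2.7.9a. The sources used here do not state how strand was handled. The authors deposited estimated counts per gene with 2 significant digits (8.28% of values under 10 were not whole), which were rounded to whole numbers, although the design had assumed counts. The deposited normalized CPM, a signal scaled by library size and factor, served the rule that kept genes, and lay within 6.95% of the count divided by the deposited library size and factor (values over 50 counts). The deposited normalization factors, a ratio per library, served 1 alternative.

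Of 56980 genes, filterByExpr left 14090 and removed 42890. edgeR 4.0.16 (TMM, robust quasi-likelihood, R 4.3.3) was fitted to all 24 libraries with 4 group terms and the sex label, and p-values were adjusted over all tested genes and called under 0.05. All tests were 2-sided, and the method was tested on simulated data. Libraries pair by the animal number in the labels: deviations of an animal's 2 libraries correlated between -0.0148 and 0.320 (median 0.106, 7211 genes), and the blocked fit is given where it changes a call. DESeq2 1.42.0 and limma-voom 3.58.1 were alternatives. Levels are given as CPM over library sizes scaled by TMM. Reads carried no molecular identifiers. Without an animal term, p-values measure the spread between the libraries of a group, each from another animal. Comparisons over both bins or all animals then count the 2 libraries of an animal as separate samples. With the fixed block, p-values measure the spread of differences within animals. With counts summed per animal, they measure the spread between animals. Figures used matplotlib 3.10.9.

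The members, lists, tests and the rule for named genes were chosen with earlier results of these data known. The rule names, in each comparison, the 3 genes of smallest p and any called; from related lists, called genes and up to 2 of smallest p. Genes named for their direction within animals, and Soat1 and the others described beyond the rule, were named after their values were seen. A result that needs a withheld item is not reported here.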

Additional observations from a re-analysis of the deposited data

Results flagged for a closer look

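In each group of 6, the highest or lowest library was compared with the range of the group on the scale log2(CPM + 0.5). Of 140 gene and group pairs, 21 had a library farther from its nearest neighbour than the critical share of that range for 6 values. Of these 21, 9 were libraries of WT animal 1. For normally distributed values chance gives about 1 in 20, but sparse genes are not so distributed. Me1 in GrnKO high, for example, was flagged with 5 of 6 libraries at 0 counts. The share over all tested genes was not computed, so no excess in this list is read from the 21. In WT low, animal 1 stood far below the others for Acat2 (0.0758 CPM), Pmvk (0.152), Mvd (0.152), Idi1 (1.06) and Elovl1 (21.2), and far above them for Scd2 (409 CPM). In WT high, animal 1 stood far above the others for Insig1 (79.1 CPM), Scd2 (158) and Fads2 (15.8). The remaining library of WT was the low library of animal 3, with Fdft1 at 8.21 CPM.

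In GrnKO low, animal 8 was far below the others for Cyp51 (0.26 CPM) and Nsdhl (0.91), and animal 6 far above them for Me1 (6.5) and Acaca (15.7). In GrnKO high, the library far above the others was animal 12 for Acat2 (14.3 CPM), animal 10 for Me1 (1.48) and animal 2 for Fads2 (2.46). The library far below them was animal 8 for Fdft1 (9.57), animal 10 for Nsdhl (5.72), animal 2 for Stard4 (0) and animal 4 for Fasn (0.521). Acat2 makes acetoacetyl-CoA, Pmvk and Idi1 act in the mevalonate steps, Fdft1 makes squalene, Cyp51 and Nsdhl demethylate sterols, and Acaca and Fasn build saturated fatty acids.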

How the results depend on the processing

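Of 632 alternative fits of the 21 named gene results, 611 kept direction and side of the threshold, 20 passed the threshold where the reported fit did not, and 1 changed sign. That was the Scd1 interaction, which was -0.029 under the replicate block without animal 8, and ran from -0.029 to 3.67 over its alternatives. The reported fit called 0 of the 35 genes in each comparison, so keeping the side of the threshold meant staying uncalled. Many alternatives left out 1 animal and shared most libraries with the reported fit. The 611 therefore do not measure how firm a fold change is. DESeq2 called 1 in the low bin (Scd1), 1 in the high bin (Me1) and 1 over both bins (Me1). Without the filter on low counts, 2 were called over both bins (Me1 and Scd1) and 1 over all animals (Scd2). With the animal as a fixed replicate block, 1 was called in WT (Ebp) and 2 over all animals (Scd2 and Ebp), and the block changed no other call. Leaving out 1 animal at a time, with and without the block, gave 0 to 1 calls in WT and 0 to 2 over all animals, and the blocked part of this was added after seeing the data. The cause was not tested. Scaling by library size alone moved the median log2 fold change of all tested genes from -0.03 to -0.17 in the low bin and from -0.04 to -0.20 for lipofuscin in WT, and left 29 of 48 calls over all genes higher in GrnKO in the low bin, against 38 of 46. Over all animals it left 26 of 185 calls higher, against 62 of 185. In the low bin DESeq2 called 358 genes in all. With a promoter window from 100 bases before the start, 0 genes held the sterol element core. Low counts limit Me1, Fads2, Elovl6, Hsd17b7, Stard4 and Scd1.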
